A study of Mus musculus with 8 samples.

Results

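10 genes of the immediate early class were followed in the RNA of murine pancreatic ductal adenocarcinoma (PDAC) cells given the MEK inhibitor trametinib or the solvent DMSO. They are Egr1, Egr2, Egr3, Nr4a1, Ier2, Ier3, Ier5, Phlda1, Plaur and Zfp36, chosen by symbol as known targets of growth factor and ERK signaling. Earlier results of these data were known when they were chosen. All 10 were among the 34478 genes of the deposited table. The cells were 4 primary lines, #1, #3, #5 and #10, grown out of pancreatic tumors of genetically engineered mice that carry Ptf1awt/Cre and Trp53loxP/loxP. Control and treated cells come from the same lines and thus share all alleles of the model, among them Cre driven from the pancreatic Ptf1a locus and the floxed Trp53 gene. Trametinib was given for 48 h at the IC50 of each line, and each line gave 1 library per treatment. Whether a line is 1 clone was not given in the sources used here.

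Immediate early genes are switched on within minutes of a stimulus without new protein synthesis. ERK, the kinase below MEK, phosphorylates ternary complex factors such as Elk1, which sit with the serum response factor SRF on CArG boxes in the promoters of these genes, and ERK-driven kinases also activate CREB at cAMP response elements. The products are mostly transcription factors and regulators with short-lived mRNAs that pass the signal on to later genes. The comparison asks how each of these genes stands once MEK has been inhibited.

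All values are normalized counts, which the authors scaled between libraries. A library summed to between 30680091 and 36385719 normalized counts, about 29300000 to 45900000 reads on genes, and 3 reads, taken as the smallest level that can be read, came to 2.33 to 3.72 normalized counts. Changes were tested in limma on log2(value + 1), blocked by line, and p-values were adjusted by Benjamini-Hochberg across the 15888 genes whose mean reached 10. Estimates are given with their standard error (SE), and changes of single lines are log2((trametinib + 1)/(DMSO + 1)). On this scale the fold changes of weakly expressed genes come out too small. Dusp6, an ERK phosphatase that reports pathway output, fell by 2.51 on the log2 scale (SE 0.14, adjusted p = 0.00012) in 4 of 4 lines. The summed counts of 5 epithelial markers lay at 207478.5 to 309789.2 with DMSO and at 99903.1 to 193613.4 with trametinib, while 6 fibroblast markers summed to 220.6 at most and Lum was at 0 in every library. Leukocyte markers (6 genes) summed to 150.5 to 231.5 with DMSO and 231.1 to 509.6 with trametinib, endothelial markers (4 genes) to 30.9 to 54.6 and 62.7 to 831.2, and acinar markers (3 genes in the table) to 24.8 to 246.6 and 16.5 to 122.9. The part of these markers in the results was not tested.

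Of the 10 genes, 9 passed the filter and 5 of these 9, Egr1, Egr3, Ier2, Phlda1 and Plaur, fell with trametinib (adjusted p under 0.05, limma). In limma 0 members passed as higher, and 0 did so at an unadjusted p under 0.05. Over all genes tested, 53.0% passed in either direction, 25.6% as lower and 27.3% as higher. The median log2 fold change was -1.08 over the 9 members (-0.84 without Nr4a1, whose value in 1 library is in doubt) and 0.07 over all tested genes. Nr4a1 did not pass, being lower in 3 lines and listed at 0 with trametinib in line #3, and Ier3, Ier5 and Zfp36 moved in different directions in different lines, which 34.0% of all tested genes did. Egr2 was below the filter. In bulk RNA, fewer cells expressing a gene and less RNA per cell cannot be told apart.

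**Figure D1:**
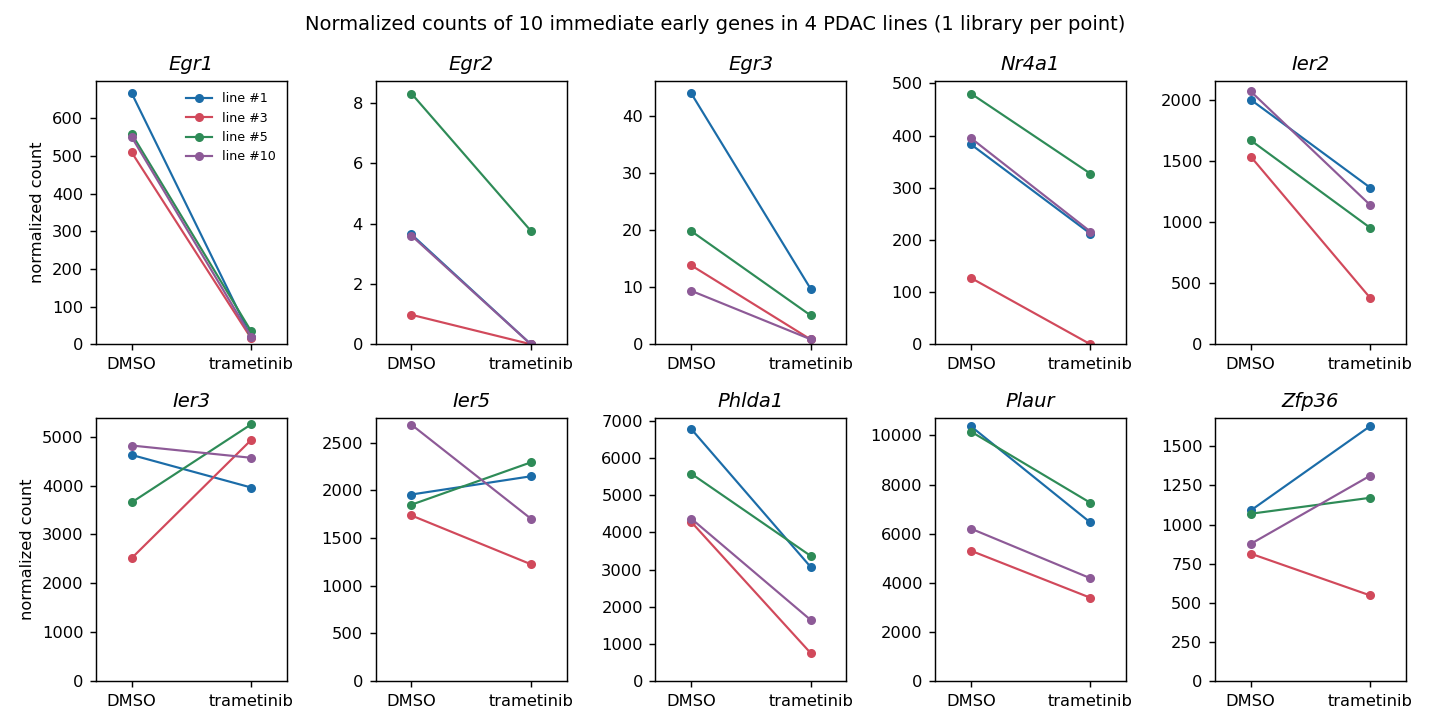
Normalized counts (vertical axis, linear, from 0) of each of the 10 genes with DMSO and with trametinib. Each point is 1 library and each line joins the 2 libraries of a cell line. Egr1 falls in every line to 34.7 or less, while Ier3, Ier5 and Zfp36 rise in some lines and fall in others.

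Egr1, a zinc finger transcription factor that binds GC-rich promoter sites, lies on chromosome 18 from 34859823 to 34864984 of GRCm38 and showed the deepest fall of the members that passed. With DMSO it stood at 667 normalized counts in line #1, 509.8 in line #3, 559 in line #5 and 550.5 in line #10. With trametinib it stood at 20, 15.9, 34.7 and 20.4 in the same order. The lines were close to each other with DMSO, 1.31-fold from lowest to highest, and spread 2.19-fold with trametinib, and every trametinib library was far below every DMSO library. Between 2.99% (line #1) and 6.21% (line #5) of the DMSO level was left. In limma the change was -4.64 on the log2 scale (SE 0.23, adjusted p = 9.4e-05), and by size of the fall Egr1 was number 15 of all 15888 genes. The trametinib values rest on about 17 to 43 reads.

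Egr3, a relative of Egr1 known from muscle spindle development and lymphocytes, was much lower to begin with. Its counts with DMSO were 43.9, 13.8, 19.8 and 9.35 in lines #1, #3, #5 and #10, and 9.71, 0.843, 5.05 and 0.867 with trametinib. All lines fell, but the treated level of line #1 was above the control level of line #10, so the groups overlap. The limma estimate was -2.33 on the log2 scale (SE 0.39, adjusted p = 0.0030), and it passed in every alternative that tested it. Its size depends on the pseudocount, with -2.82 at 0.1 and -1.50 at 5, and its adjusted p lay between 0.0018 and 0.041. In lines #3 and #10 about 1 read was left with trametinib, below the floor of 3 reads. Against that floor Egr3 was at least 4.91-fold lower in line #3 and at least 3.24-fold lower in line #10.

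Egr2, known for its role in peripheral myelination, was close to the limit of what these libraries can show. It was at 3.64, 0.975, 8.31 and 3.60 with DMSO, about 5, 1, 7 and 4 reads, and with trametinib it was at 3.76 in line #5 and listed at 0 in the other 3 lines. It was lower in 4 of 4 lines, but in line #3 both libraries are under the floor. The remaining member of the family, Egr4, was listed at 0 in every library but that of line #1 with DMSO, where it was at 0.776, about a single read.

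Nr4a1, the orphan nuclear receptor also called NUR77, had 383, 127, 480.4 and 395 normalized counts with DMSO. With trametinib it had 212 in line #1, was listed at 0 in line #3, and had 327 in line #5 and 216 in line #10. Line #3 was the lowest line under both treatments, and the other 3 lines kept 54.8% to 68.2% of their DMSO level. Over the 4 lines limma gave -2.32 on the log2 scale (SE 1.05, adjusted p = 0.11), which did not pass, and -0.76 (SE 0.14, adjusted p = 0.0056) without line #3. The adjusted p of Nr4a1 lay between 0.0056 and 0.33 over all alternatives run. The value of line #3 is given only as listed at 0, since genes that most cells use were listed at 0 as well, Hsf1 in this library and 1 other and Tsc2 in 7 of the 8 libraries. In that library 8 of the 10977 genes with at least 100 normalized counts in the DMSO library of the line were listed at 0, and 9 of the 11506 genes with at least 100 there were listed at 0 in the DMSO library.

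Ier2, a small nuclear protein, lies in a single exon on chromosome 8 from 84661331 to 84662852. It had 2003, 1537, 1670.3 and 2071 normalized counts with DMSO and 1283, 380.3, 954 and 1141 with trametinib. Every treated library was below every control library, and line #3 was the lowest of both groups. This change of -1.08 on the log2 scale passed in limma (SE 0.23, adjusted p = 0.0071). The fall in line #3, to 24.7% of the DMSO level, was deeper than in the other lines, which kept 55.1% to 64.0%.

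Ier5, a regulator that helps to activate heat shock factor 1, did not move in a shared direction. Its counts with DMSO were 1955, 1735, 1848 and 2687, and 2146, 1224, 2292 and 1702 with trametinib. Lines #1 and #5 were higher and lines #3 and #10 lower, and the groups overlap. The change over the 4 lines, -0.18 on the log2 scale, did not pass (SE 0.18, adjusted p = 0.42 in limma).

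Ier3, a stress-induced regulator of apoptosis and ERK signaling also called IEX-1, had 4626, 2514, 3655 and 4819 normalized counts with DMSO and 3959.5, 4931, 5251 and 4568 with trametinib. Line #3 was at 196% of its DMSO level and line #5 at 144%, while lines #1 and #10 were at 85.6% and 94.8%. The spread between lines was smaller with trametinib, 1.33-fold from lowest to highest against 1.92-fold with DMSO. Over the 4 lines the change of 0.30 did not pass (SE 0.20, adjusted p = 0.24 in limma).

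Phlda1, a pleckstrin homology-like protein that restrains signaling by growth factor receptors, had 6787, 4283, 5583 and 4372 normalized counts with DMSO. With trametinib it had 3072, 753, 3369 and 1644. The groups did not overlap, and line #3 was lowest in both. It fell by 1.45 on the log2 scale in limma (SE 0.26, adjusted p = 0.0041), with 17.6% of the DMSO level left in line #3 and 60.4% in line #5. Exons of Phlda1 overlap those of Gm28592 on the opposite strand over 727 bases in GENCODE M21, and exons of Zfp36 overlap those of Gm44710 on the opposite strand over 125 bases. The library kit keeps the strand, but how the counting used it was not given in the sources used here.

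Plaur, the receptor of urokinase at the cell surface, had the highest mean count of the 10 genes under both treatments, though Ier3 was above it with trametinib in lines #3 and #10. It stood at 10374, 5304, 10159 and 6204 with DMSO and at 6456, 3389, 7258 and 4185 with trametinib. Lines #1 and #5 were high and lines #3 and #10 low under both treatments, so the groups overlap although every line fell. Between 62.2% and 71.4% of the DMSO level was left. With lines as blocks the limma estimate was -0.60 (SE 0.08, adjusted p = 0.0013). Without the block it did not pass (adjusted p = 0.18), as the differences between lines then count as spread, and the adjusted p lay between 0.00095 and 0.18 over all alternatives run.

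Zfp36, the gene of tristetraprolin, which binds AU-rich elements and speeds up decay of the mRNAs that carry them, had 1089.9, 814, 1069 and 876 normalized counts with DMSO. With trametinib it had 1629, 547, 1171 and 1312. Line #3 was at 67.2% of its DMSO level and the other 3 lines were at 109% to 149.9%. The limma estimate of 0.18 did not pass (SE 0.20, adjusted p = 0.48), and without line #3 it was 0.43 (SE 0.12, adjusted p = 0.025). Over all alternatives run the adjusted p of Zfp36 lay between 0.025 and 0.89.

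**Figure D2:**
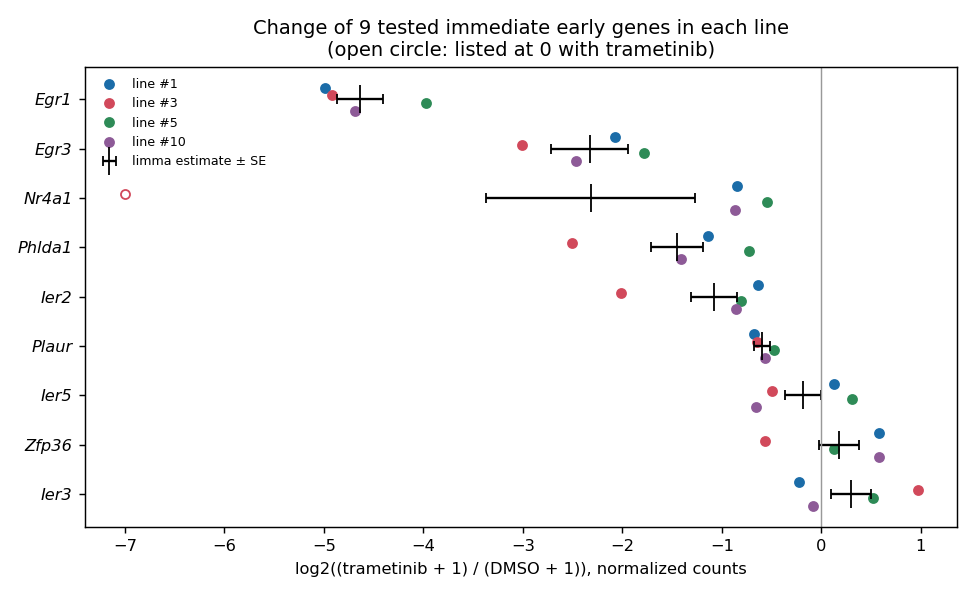
Change of the 9 tested genes on the log2((trametinib + 1)/(DMSO + 1)) scale (horizontal axis). Colored circles are the 4 lines, the open circle is a gene listed at 0 with trametinib, and the black mark with bars is the limma estimate with its standard error; Egr1 lies between -4.99 and -3.97 in all lines, and Ier3, Ier5 and Zfp36 have lines on both sides of 0.

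For 3 of the 9 tested members, Egr1, Ier2 and Phlda1, every trametinib library was below every DMSO library, which held for 16.2% of all tested genes. Line #3 stood apart from the other lines for several members. Of the 9 tested members, 8 were lowest in line #3 with DMSO and 8 with trametinib, whereas line #3 was the lowest for 30.7% and 37.5% of all tested genes. It also had the lowest log2 fold change for 5 of the 9, Egr3, Nr4a1, Ier2, Phlda1 and Zfp36, against 37.5% of all tested genes. The median log2 fold change of the 9 members was -2.01 in line #3, -0.86 in line #10, -0.68 in line #1 and -0.55 in line #5, beside 0.03 to 0.06 for all tested genes. These counts and medians take Nr4a1 in line #3 at its listed 0. Without Nr4a1, an alternative chosen after seeing the data, line #3 was lowest for 7 of 8 members under each treatment and had the lowest log2 fold change for 4 of 8, and the medians were -1.33 in line #3 and -0.76 to -0.61 in the others. With 1 library per line and treatment, differences between lines in the response could not be tested, and differences in level between lines were not tested.

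Normalized counts per kilobase of exon allow the members to be set in order. With DMSO the order was Ier3 (3451 ± 935, SD, n = 4 lines), Plaur (3061 ± 1006), Phlda1 (2384 ± 535), Ier2 (1196 ± 169), Ier5 (628 ± 131), Zfp36 (277 ± 39.8), Egr1 (127 ± 15.0), Nr4a1 (98.7 ± 43.5), Egr3 (4.93 ± 3.50) and Egr2 (1.22 ± 0.898). The lines of Ier3 and Plaur, of Plaur and Phlda1, of Egr1 and Nr4a1, and of Egr3 and Egr2 overlapped across lines, although Plaur was above Phlda1 and Egr3 above Egr2 within each line. With trametinib the order was the same but for Egr1, at 5.07 ± 1.84 (SD, n = 4 lines) per kilobase, which came after Nr4a1 at 53.9 ± 39.0 (SD, n = 4 lines). The mean of Nr4a1 includes line #3, where it was listed at 0 and Egr1 was at 3.54, so the order of these neighbors is reversed in that line. With trametinib the lines of Plaur and Phlda1, of Phlda1 and Ier2, of Ier2 and Ier5, of Ier5 and Zfp36, and of Egr3 and Egr2 overlapped as well, with Plaur above Phlda1 and Ier5 above Zfp36 within each line. The exon lengths are unions over the transcripts of GENCODE M21, so these levels are approximate.

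The members are compact genes. Their genomic span had a median of 4316 bases, from 1240 (Ier3) to 20527 (Nr4a1), against 24214 bases for 13107 tested protein-coding genes. The longest coding transcript had a median of 2 exons, against 9 for the tested genes, and 8 of the 10 members spanned less than 10000 bases, which 24.1% of the tested genes did.

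Promoter windows from 250 bases before to 50 bases after the annotated start (RefSeq, GRCm38.p6) were found for 6 members, Egr2, Ier3, Ier5, Nr4a1, Plaur and Zfp36. No window was used for Egr1, Egr3, Ier2 and Phlda1. Of the members that passed as lower, the windows thus cover only Plaur. The window of Plaur is shown as that of a gene lower in every line, that of Nr4a1 for its 4 half-sites of the cAMP response element, and that of Zfp36 as that of a gene with no shared direction. Each reads 5′ to 3′ on the strand of the gene, and capitals mark matches, on either strand, to the CArG box, the ETS core CCGGAA, the cAMP response element half-site TGACG, the EGR site GCGGGGGCG and the AP-1 site TGANTCA. The positions are chr15:101266596-101266895 (plus strand) for Nr4a1, chr7:24462233-24462532 (plus strand) for Plaur and chr7:28379179-28379478 (minus strand) for Zfp36.
Nr4a1: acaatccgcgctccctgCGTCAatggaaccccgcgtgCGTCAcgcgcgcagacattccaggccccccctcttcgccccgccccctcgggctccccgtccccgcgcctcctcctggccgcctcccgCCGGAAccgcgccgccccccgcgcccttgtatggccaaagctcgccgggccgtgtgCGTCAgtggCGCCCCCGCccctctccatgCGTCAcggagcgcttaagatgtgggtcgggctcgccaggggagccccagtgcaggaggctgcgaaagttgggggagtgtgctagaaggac
Plaur: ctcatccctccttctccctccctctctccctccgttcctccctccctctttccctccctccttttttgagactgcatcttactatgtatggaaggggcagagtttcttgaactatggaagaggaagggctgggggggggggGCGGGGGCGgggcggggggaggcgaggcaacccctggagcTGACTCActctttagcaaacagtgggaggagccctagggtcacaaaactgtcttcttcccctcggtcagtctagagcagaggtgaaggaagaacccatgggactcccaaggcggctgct
Zfp36: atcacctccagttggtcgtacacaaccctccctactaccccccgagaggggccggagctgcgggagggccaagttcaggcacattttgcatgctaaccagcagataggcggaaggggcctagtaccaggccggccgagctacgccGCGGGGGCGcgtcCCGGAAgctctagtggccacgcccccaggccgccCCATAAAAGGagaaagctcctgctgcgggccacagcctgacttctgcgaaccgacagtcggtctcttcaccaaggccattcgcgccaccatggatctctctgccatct

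The CArG box occurred in 1.63% of all 32851 windows and in 2 of the 6 members, Zfp36 and Egr2. Egr2 has 5 windows for its start sites, 4 of them with the box, and was counted if any held a match, so its chance of a match is not that of a single window. In Zfp36 it lay from -58 to -49 relative to the start site, with an ETS core from -92 to -87 and an EGR site from -105 to -97. Nr4a1 held 4 half-sites of the cAMP response element, an ETS core from -125 to -120 and an EGR site from -60 to -52 on the other strand. Plaur held an EGR site from -109 to -101, which overlaps matches to the SP1 site GGGGCGGGG, and an AP-1 site from -69 to -63. Ier3 and Ier5 held none of these 5 motifs in their windows. In all windows, the ETS core occurred in 14.9%, the half-site in 20.8%, the EGR site in 2.91% and the AP-1 site in 7.81%. A match is only a description of the letters.

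**Figure D3:**
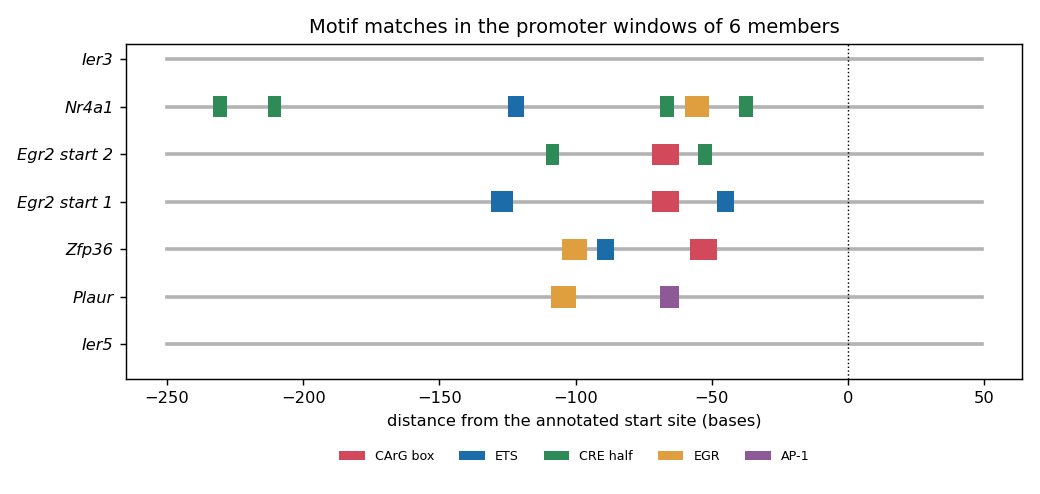
Positions of motif matches relative to the annotated start site (horizontal axis, in bases) in the windows of 6 members, with 2 of the start sites of Egr2. Each gray bar is a window and colored blocks are matches on either strand; CArG boxes appear in Zfp36 and Egr2, and the windows of Ier3 and Ier5 hold no match.

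In the 3′ UTR, the AU-rich nonamer TTATTTATT, the core that tristetraprolin binds in RNA with U for T, was found in 2 of the 10 members and in 8.2% of 13004 tested genes. These sites are printed because Zfp36 encodes the binding protein and carries a site itself. They lie at chr10:111508349-111508375 (plus strand) in Phlda1 and chr7:28376952-28376978 (minus strand) in Zfp36 of GRCm38, with the nonamer in capitals.
Phlda1: ggattatgaTTATTTATTagttttttt
Zfp36: atgacgactTTATTTATTgtattaaga

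Among tested genes with a 3′ UTR within 20% of the length of the member's, the nonamer occurred in 3.8% for Phlda1 (612 bases) and 4.3% for Zfp36 (774 bases). The shorter pentamer ATTTA occurred 5 times in the 3′ UTR of Ier3, 3 times each in those of Phlda1, Zfp36 and Nr4a1, and 0 times in that of Ier2, where the median of genes of like length was 1 in each case. It occurred 7 times in that of Egr3 (median 4), 3 times in Egr2 and 2 times in Egr1 (median 2 for both), 2 times in Ier5 (median 3) and 2 times in Plaur (median 0).

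Close relatives of the members moved in both directions. Nr4a2 rose in 4 of 4 lines, from 140 to 248 normalized counts with DMSO to 271 to 645 with trametinib, without overlap, by 1.18 on the log2 scale (SE 0.15, adjusted p = 0.0010 in limma). Nr4a3 was low, at 2.06 to 22.6 with DMSO and 8.38 to 21.2 with trametinib, and did not pass (adjusted p = 0.30 in limma). Ier5l rose in all 4 lines by 1.89 on the log2 scale (SE 0.14, adjusted p = 0.00029 in limma), beside -0.18 for Ier5. In the tristetraprolin family, Zfp36l1 rose by 1.29 (SE 0.12, adjusted p = 0.00045 in limma) and Zfp36l2 fell by 1.23 (SE 0.12, adjusted p = 0.00058 in limma), each in all 4 lines. Phlda2 fell by 2.52 (SE 0.15, adjusted p = 0.00017 in limma), and Phlda3, a target of p53, rose by 0.42 (SE 0.14, adjusted p = 0.036 in limma). Differences between a member and its relative were not tested.

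**Figure D4:**
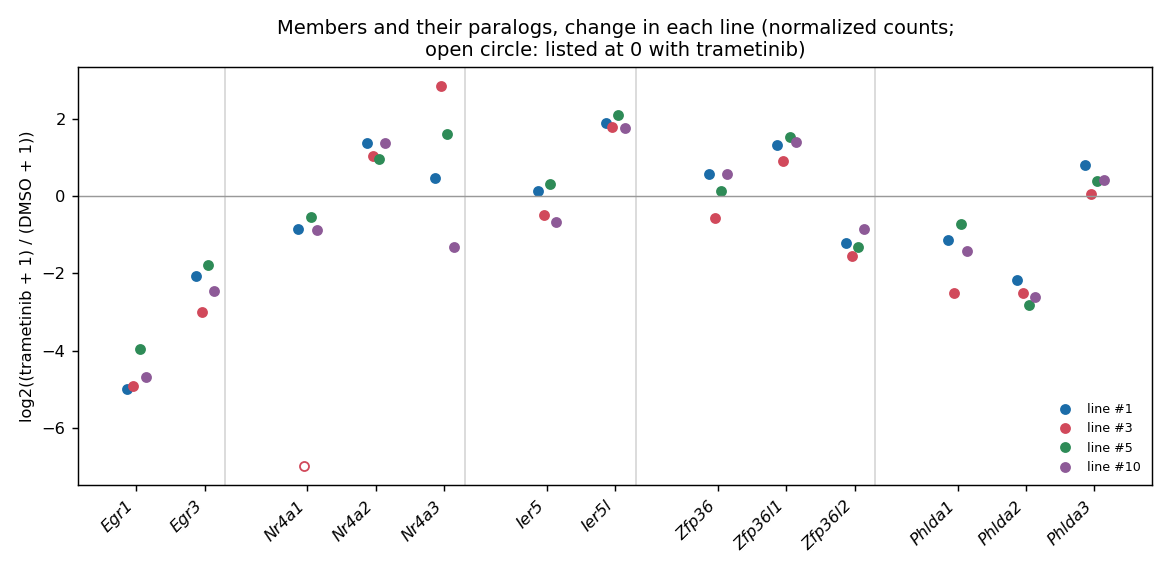
Change of members and their relatives in each line (vertical axis, log2((trametinib + 1)/(DMSO + 1)) of normalized counts), grouped by family. Circles are the 4 lines and the open circle is Nr4a1 listed at 0 in line #3; Nr4a2, Ier5l and Zfp36l1 lie above 0 in all 4 lines, and Zfp36l2 and Phlda2 below.

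A wider list of 44 other immediate early genes held 42 that passed the filter. Of these, 11 were lower and 21 higher (adjusted p under 0.05, limma), with a median log2 fold change of 0.38. Without the block 6 were lower and 14 higher, or 14.3% and 33.3%, beside 14.8% and 13.9% of all tested genes. The strongest falls were in the AP-1 gene Fosl1 (-3.73, SE 0.29, adjusted p = 0.00031 in limma), in Phlda2 and in Fos (-1.89, SE 0.23, adjusted p = 0.0010 in limma). The strongest rises were in Dusp1, a phosphatase of MAP kinases (3.01, SE 0.26, adjusted p = 0.00037 in limma), in the matricellular gene Cyr61 (2.83, SE 0.33, adjusted p = 0.00087 in limma) and in the stress gene Gadd45b (2.59, SE 0.18, adjusted p = 0.00022 in limma). With the block, the lower genes were 26.2% of the list, close to the 25.6% of all tested genes. The higher genes were then 50%, beside 27.3% of all tested genes.

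Of 14 genes upstream of immediate early promoters, 5 were lower and 3 higher (adjusted p under 0.05, limma), and their median was -0.20. The lower genes were 35.7% of this list and the higher genes 21.4%, beside 25.6% and 27.3% of all tested genes. The split was 4 and 4 with equal totals or quantile normalization, 6 and 2 with centring on the median, and 4 and 1 without the block. Of all tested genes, 20.7% were lower and 33.5% higher with equal totals, and 26.6% and 23.8% with quantile normalization. These shares were 28.3% and 24.2% with centring on the median, and 14.8% and 13.9% without the block. The ternary complex factor Elk1 rose by 0.67 (SE 0.10, adjusted p = 0.0017 in limma), as did the SRF cofactors Mkl2 by 0.79 (SE 0.09, adjusted p = 0.00072 in limma) and Mkl1 by 0.61 (SE 0.19, adjusted p = 0.033 in limma). The kinase gene Rps6ka4, which encodes MSK2, fell by 1.51 (SE 0.10, adjusted p = 0.00020 in limma), and the CREB relative Atf1 and the kinase gene Rps6ka1 fell by 0.99 and 0.76 (adjusted p = 0.00058 and 0.0014 in limma). Srf itself was at 1181 to 1681 normalized counts with DMSO and 755 to 1767 with trametinib (adjusted p = 0.44 in limma). Among 11 genes of the cascade, 6 were lower and 3 higher (adjusted p under 0.05, limma), beside 25.6% and 27.3% of all tested genes. The deepest falls were in the scaffold gene Ksr1 (-0.56, SE 0.11, adjusted p = 0.0061), in Hras (-0.55, SE 0.12, adjusted p = 0.0089) and in Map2k1, the gene of MEK1 (-0.51, SE 0.08, adjusted p = 0.0024). The RAF kinase genes Braf and Araf rose by 0.67 (SE 0.14, adjusted p = 0.0066) and 0.33 (SE 0.11, adjusted p = 0.035), and Mapk3, the gene of ERK1, by 0.33 (SE 0.09, adjusted p = 0.020). With equal totals or quantile normalization, 4 of the cascade genes were lower and 3 higher in limma. With centring on the median, 6 were lower and 1 was higher, and without the block 1 was lower and 0 were higher in limma.

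Downstream of the EGR factors, 12 corepressors and known targets gave 2 lower and 6 higher genes (adjusted p under 0.05, limma), with a median of 0.33. Nab2, a corepressor that EGR proteins induce, fell from 512 to 629 normalized counts with DMSO to 399 to 442 with trametinib, without overlap, or by 0.48 on the log2 scale (SE 0.11, adjusted p = 0.010 in limma). Cd44, a hyaluronan receptor, fell by 1.32 (SE 0.18, adjusted p = 0.0016 in limma). Pdgfa, a growth factor gene that EGR1 can activate, rose by 2.25 (SE 0.22, adjusted p = 0.00054 in limma), fibronectin (Fn1) by 3.16 (SE 0.27, adjusted p = 0.00036 in limma) and thrombospondin (Thbs1) by 3.64 (SE 0.35, adjusted p = 0.00054 in limma). The lower genes were 16.7% of this list and the higher genes 50%, beside 25.6% and 27.3% of all tested genes.

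Around Plaur, 4 of 13 tested genes of the plasminogen system were lower and 6 higher (adjusted p under 0.05, limma), or 30.8% and 46.2% beside 25.6% and 27.3% of all tested genes. Their median was -0.08, and it was 0.05 with libraries scaled to equal totals and -0.39 with quantile normalization. The plasmin-generating surface complex of Anxa2 and S100a10 fell by 1.49 (SE 0.13, adjusted p = 0.00037 in limma) and 1.00 (SE 0.11, adjusted p = 0.00065 in limma), and the serpin gene Serpinb6a by 0.80 (SE 0.10, adjusted p = 0.0012 in limma). Lrp1, an uptake receptor of the cell surface, rose by 2.34 (SE 0.12, adjusted p = 9.4e-05 in limma), and the plasminogen receptor gene Plgrkt by 1.10 (SE 0.11, adjusted p = 0.00054 in limma). Plau, which encodes urokinase, was at 444 to 909 with DMSO and 313 to 809.8 with trametinib and did not pass (adjusted p = 0.16 in limma).

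Of 19 tested targets and partners of tristetraprolin, 6 were lower and 5 higher (adjusted p under 0.05, limma), or 31.6% and 26.3%, near the 25.6% and 27.3% of all tested genes. Without the block 4 were lower and 2 higher, or 21.1% and 10.5%, beside 14.8% and 13.9% of all tested genes. The median of the 19 genes was -0.10, and it was 0.02 with equal totals and 0.04 with quantile normalization. The cytokine gene Csf2 fell from 35.9 to 201 normalized counts with DMSO to 1.89 to 14.5 with trametinib (log2 fold change -3.57, SE 0.26, adjusted p = 0.00026 in limma), and Lif fell by 0.72 (SE 0.17, adjusted p = 0.011 in limma). Hnrnpd, the gene of the AU-rich element binding protein AUF1, fell by 1.17 (SE 0.08, adjusted p = 0.00025 in limma). The chemokine gene Ccl2 rose by 3.14 (SE 0.42, adjusted p = 0.0013 in limma), Vegfa by 2.13 (SE 0.14, adjusted p = 0.00020 in limma) and Il23a by 1.39 (SE 0.45, adjusted p = 0.037 in limma). Il23a was low, at 1.08 to 10.3 normalized counts with DMSO and 8.74 to 25.9 with trametinib. Its value in line #5 with DMSO, 1.08, and that of Csf2 in line #3 with trametinib, 1.89, were under the floor of 3 reads. Tnf, Il6 and Il1a were below the filter.

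**Figure D5:**
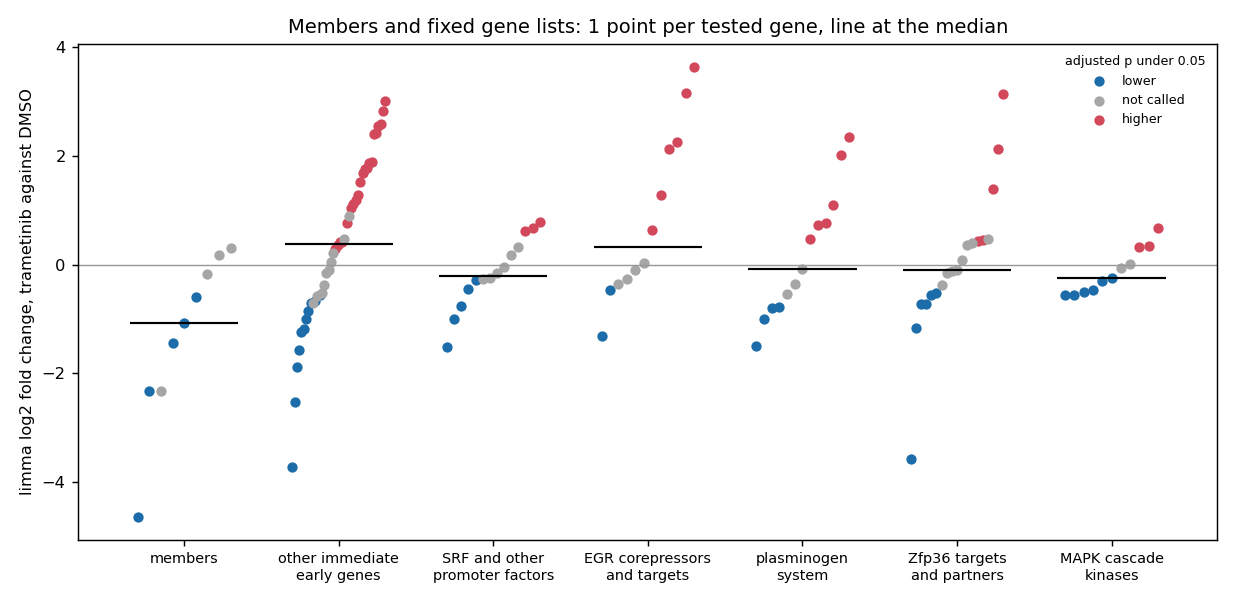
Limma log2 fold change with trametinib (vertical axis) of the 9 tested members and of the tested genes of the 6 lists, 1 point per gene, with a bar at the median. Blue and red points have an adjusted p under 0.05 as lower and higher; the median is -1.08 for the members and 0.38 for the other immediate early genes.

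The profile of the 9 tested members over the 8 libraries was summarized as the mean of their standardized log2 values. It was highest in line #1 with DMSO (0.77) and lowest in line #3 with trametinib (-1.52). Of 12416 other genes with a mean of at least 50, those with the most similar profile, in which Nr4a1 stands at its listed 0, were Mbnl1 (Pearson r = 0.991 over 8 libraries), Iqgap3 (0.990), Twistnb (0.988), Cd47 (0.988) and Rnf168 (0.987). Each of the 5 was lowest in line #3 with trametinib, as the profile was, and Iqgap3 had 3928 normalized counts with DMSO and 1330.1 with trametinib there. The 8 libraries share lines and treatments, so this likeness is a description.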

How the data were processed

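RNA of 4 PDAC lines, each with DMSO and with trametinib, was sequenced from stranded mRNA libraries. The submitters' processing notes name CASAVA 2.17, Salmon 0.12, DESeq2 1.18 and the build mm10, without their roles. The authors deposited normalized counts per gene, used here as a signal scaled between libraries; whole reads could not be recovered, as 39.1% to 62.6% of the values under 20 reads lay within 0.02 of a whole read. Values were transformed as log2(value + 1) and fitted in limma 3.58.1 (R 4.3.3) blocked by line and with the eBayes trend, for genes with a mean of at least 10, and P-values were adjusted by Benjamini-Hochberg over all 15888 genes. The labels give both libraries of a line its number, and such libraries deviated together from their treatment means (correlation across genes of 0.631 to 0.724). The fit was tested on simulated data. Python 3.11.15 with pandas 2.3.3 was used for tables.

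The members and lists were chosen with earlier results of these data known. Named were all members, their paralogs, the 3 largest rises and 3 largest falls past the threshold in each list, the 5 genes most like the members, and Dusp6. Genes named beyond this rule were picked with their values in view. An allele of the mouse model and a gene that the rule names are not reported here. The lists counted here leave out members, and Srf, Vegfa and Ptgs2 stand in more than 1 list. Alternatives were pseudocounts of 0.1 and 5, equal totals, median centring, quantile normalization, no filter, a filter at 50, no block, eBayes without trend or robust, and each line left out. Gene models are those of GENCODE M21 (GRCm38) and promoter windows those of RefSeq (GRCm38.p6), matched by symbol.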

Additional observations from a re-analysis of the deposited data

Results flagged for a closer look

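The members' values were searched, in 30 sets of 4 lines, for a line that stands far off, which gave 3 cases. Chance alone would give about 1.5 in independent, normally distributed sets. The sets of fold changes were made from the same counts as the other sets, so this figure is only a rough guide. Nr4a1 changed by -7.00 on the log2 scale in line #3, being listed at 0 with trametinib there, against -0.865 to -0.551 in the other lines, so the size of this value is set by the pseudocount of 1 and is no measure of a fold. The change of Ier2 was -2.01 in line #3, against -0.86 to -0.643. Egr2 with trametinib was at 3.76 normalized counts in line #5 and listed at 0 in the others.

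For 3 of the 9 tested members the lines moved in opposite directions, near the share of all tested genes that did so, 34.0%. The difference between lines was not tested. Ier3 had log2 fold changes from -0.22 in line #1 to 0.97 in line #3, Ier5 from -0.66 in line #10 to 0.31 in line #5, and Zfp36 from -0.57 in line #3 to 0.58 in line #10.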

How the results depend on the processing

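Egr1, Egr3, Ier2 and Phlda1 passed as lower in limma under every alternative that tested them (a filter at a mean of 50 left out Egr3), and no member changed sign. Without the block, Plaur did not pass (log2 fold change -0.60, adjusted p = 0.18 in limma), and 6 of the other immediate early genes were lower. In that setting 1 of the promoter factors and 2 of the tristetraprolin targets and partners were higher. Of the cascade genes, 1 was lower and 0 were higher without the block. Over all genes, 2347 (14.8%) were then lower and 2205 (13.9%) higher. Among the cascade genes, 1 was higher with centring on the median and 1 with eBayes without trend. With each line left out, the log2 fold change of Nr4a1 lay between -2.90 and -0.76 and that of Zfp36 between 0.05 and 0.43, and both passed only without line #3. The number of members higher then lay between 0 and 1, that of EGR corepressors and targets lower between 1 and 3 (1 without line #10), and that of cascade genes higher between 1 and 3 (1 without line #10). Without a filter, Egr2 passed as lower in limma (-1.59 on the log2 scale, adjusted p = 0.034). Equal totals moved the median of all genes from 0.07 to 0.20. The cause of these changes was not tested. Among the members, depth limits Egr2 and Egr3, which rest on few reads.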

Other observations

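Of the 42 tested genes in the wider list of immediate early genes, 8 (19.0%) moved in both directions among the lines, against 34.0% of all tested genes, and 0 of the 8 passed in limma. They are named after their values were seen. Tiparp, an enzyme of the PARP family, changed by 1.09 on the log2 scale in line #3 and by between -0.67 and -0.26 in the other lines. Ptgs2, the gene of cyclooxygenase 2, was at 1.5 in line #3, 0.79 in line #5 and -0.19 in lines #1 and #10, the same signs in each line as Ier3. Arc and Gem had -2.46 and -1.82 in line #3. Klf2 had 0.68 in line #3 and -2.31 in line #5, and Maff, Nr4a3 and Srf were the others.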
